A study of Mus musculus with 2 samples.

Results

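Ligands of the TNF superfamily were examined in regulatory T cells (Tregs) of mice given bleomycin, a drug that injures the lung and leads to fibrosis, as the 10 genes Tnf, Lta, Ltb, Fasl, Cd40lg, Tnfsf8, Tnfsf10, Tnfsf11, Tnfsf14 and Cd70. They were chosen by name as ligands that T cells can make, and all 10 were found among the 24346 gene symbols listed in both libraries. GFP+CD4+ cells were sorted from adult Foxp3-DTR-GFP (FDG) mice, in which the endogenous Foxp3 locus drives GFP together with the diphtheria toxin receptor, on day 15 after intratracheal bleomycin. One library was made from spleen and 1 from lung, each from the pooled cells of 3 mice, and both tissues come from bleomycin-treated animals, so no untreated group enters the comparison. With 1 pooled library per tissue there is no spread between mice, no test and no p-value. The values are FPKM, the fragments of a gene per kilobase of exon and per 1000000 mapped fragments, and a ratio is the lung value divided by the splenic value after values under 0.1 FPKM were set to 0.1.

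TNF superfamily ligands are made mostly as membrane proteins that assemble into trimers, and some are cut from the cell surface by proteases and act as soluble cytokines. Some of their receptors carry a death domain, as Fas and Tnfrsf1a do, and many recruit TRAF adaptors and switch on NF-kappaB. On T cells the ligands serve help to B cells and myeloid cells, the killing of target cells, the upkeep of lymphoid tissue and bone, and costimulation of other T cells. In Tregs the receptors of the family are better known than the ligands, and TNF itself acts on Tregs through Tnfrsf1b.

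The mRNAs of the ligands differ in the signals for their own decay. AU-rich elements in the 3′ UTR, built on the pentamer ATTTA, are bound by proteins such as Zfp36 (tristetraprolin) that shorten the life of the message, and Tnf is the textbook case. In the GENCODE M21 transcript (GRCm38) the 764-nt 3′ UTR of Tnf holds 8 copies of ATTTA, counted with overlaps on the sense strand, and 5 copies of the longer form TTATTTATT, which contains the pentamer. Among 10891 genes with a 3′ UTR and at least 1 FPKM in either library, 67.1% hold the pentamer, 7.55% the longer form and 0.578% hold it 3 or more times. The 572-nt 3′ UTR of Lta, the gene beside Tnf, holds 3 pentamers and 1 longer form, whereas the 156-nt 3′ UTR of Ltb, on the other side, holds no pentamer. Tnfsf8 has 10 pentamers over 2799 nt, Tnfsf10 has 8 over 3998 nt and Tnfsf11 has 6 over 1131 nt, none of them in the longer form, and Cd40lg has 2, Fasl 1, Tnfsf14 1 and Cd70 1. The stretches of at most 30 bases with the most pentamers are shown for the genes with 2 or more in 1 stretch, with the pentamers in capitals.
Tnf: ttATTTAttATTTATTTAttATTTATTTA
Lta: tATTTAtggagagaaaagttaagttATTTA
Tnfsf10: ctATTTAtcatATTTA
Tnfsf8: tATTTAtctttttctctttttcttcATTTA

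Both libraries carried the genes of the sort. Foxp3 was at 18.7 and 41.8 FPKM in splenic and lung Tregs, Cd4 at 195 and 179 FPKM, and the log2 ratios of the 5 T cell genes found had -0.13 as their median, with 1 of them higher in lung. Of 6 Treg genes 3 were higher in lung and 3 lower, with sums of 911 and 1693 FPKM. RNA of other cells was present as well. All 8 macrophage genes were higher in lung, with summed levels of 489 FPKM in spleen and of 25444 in lung, mostly Lyz2 (376 and 24947 FPKM), as were 5 of 6 neutrophil genes (426 and 1200 FPKM, with Mpo at 0 in lung) and all 5 fibroblast genes (0.290 and 47.0 FPKM, with Col3a1 and Pdgfra at 0 in spleen). Genes of CD8 and NK cells summed to 39.7 and 106 FPKM, with 4 of 6 higher in lung and Ncr1 at 0 there, and genes of dendritic cells to 11.9 and 31.1 FPKM, with 3 of 6 higher and Clec9a at 0 in lung. All 6 B cell genes were lower in lung (253 and 132 FPKM). The epithelial genes summed to 11.0 and 3122 FPKM, 4 of 5 of them higher in lung and Sftpc at 0 in spleen. The endothelial genes summed to 55.4 and 40.6 FPKM, mostly Pecam1 (54.8 and 31.7 FPKM). Of these 5 genes 3 were higher in lung (Cdh5, Vwf and Cldn5), with Cdh5 at 0 in spleen and Kdr at 0 in lung. Mast cell and basophil genes summed to 2.91 and 2.66 FPKM, with 2 of 5 higher in lung and Mcpt8 at 0 in both. Macrophages, dendritic cells, NK cells and B cells can express several of the ligands and receptors, among them Tnf, Tnfsf13, Tnfsf13b, Tnfsf9, Cd70, Fasl, Tnfrsf11a and Cd40. The part of these cells in each value was not tested, and in bulk RNA more cells of a type cannot be told apart from more RNA per cell.

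The ligands spanned a wide range of levels, and the splenic and the lung library had nearly the same order. Ltb stood far above the others, and the rest fell off from Lta and Cd40lg down to Cd70, which was near the limit of detection in spleen. Together the 10 genes reached 818 FPKM in the splenic library and 730.2 FPKM in the lung library, of which Ltb made up 73.4% and 73.2%. Without Ltb the sums were 218 and 196 FPKM. Only Cd70 and Tnfsf8 differed by more than 2-fold between the libraries, in opposite directions.

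**Figure D1:**
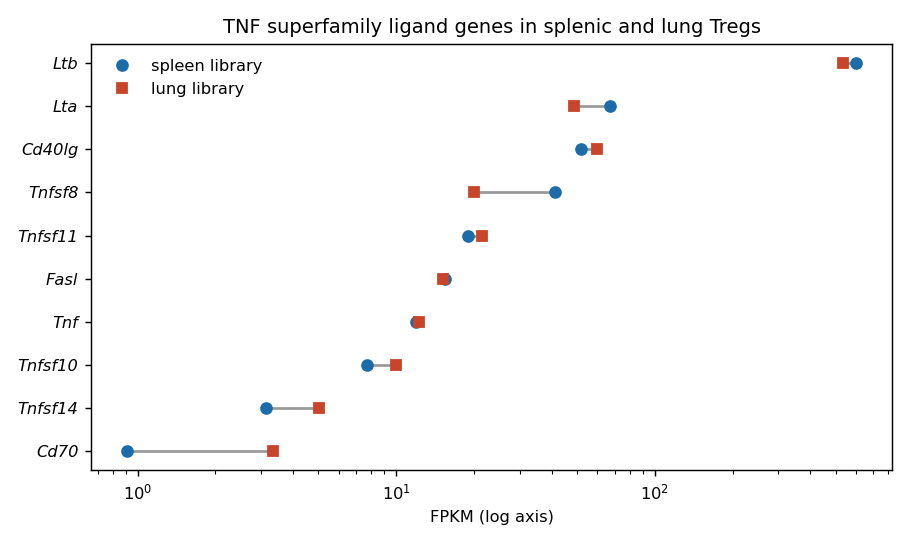
FPKM of the 10 ligand genes on a log axis, with a circle for the splenic and a square for the lung library (1 pooled library each) joined by a line. Ltb lies at 599.9 and 534.5 FPKM, and the widest gaps between circle and square are those of Cd70 (0.913 and 3.35 FPKM) and Tnfsf8 (41.0 and 19.98 FPKM).

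The reads behind each value were estimated from the FPKM and the transcript length, and the 95% interval of a ratio was taken from these reads with the exact binomial (Clopper-Pearson) method. Such intervals cover counting error only, neither the variation between mice nor that of PCR amplification, since the kit adds no molecular identifiers. One read on an effective length of 1 kb was worth 0.0965 FPKM in spleen and 0.0850 in lung, and the estimated reads summed to 9860227 and 12877764. In GRCm38 the genes outside chromosome 17 were Fasl on chromosome 1 (161780691 to 161788495), Tnfsf10 on chromosome 3 (27317077 to 27339665), Tnfsf8 on chromosome 4 (63831202 to 63861508), Tnfsf11 on chromosome 14 (78277446 to 78308043) and Cd40lg on chromosome X (57212143 to 57224042). No exon of another annotated gene overlapped an exon of the 10 ligands.

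The membrane and soluble lymphotoxins were the most abundant of the ligands in spleen, while in lung Cd40lg lay between Ltb and Lta. Ltb, the membrane anchor of the lymphotoxin heterotrimer that maintains lymphoid tissue through Ltbr, came to 599.9 FPKM in splenic and 534.5 in lung Tregs, from about 5920.3 and 5989 reads. It was the 151st and the 247th most abundant gene of the respective library, and its ratio was 0.891 (counting interval 0.859 to 0.924). Lta, which forms soluble homotrimers that bind the TNF receptors or joins Ltb at the membrane, had 66.8 FPKM in splenic Tregs and 48.7 in lung Tregs, from about 814 and 673 reads. Its ratio was 0.728, with an interval of 0.657 to 0.807. Both lymphotoxins were thus lower in the lung library by less than 2-fold. Tnf, the inflammatory cytokine that names the family, measured 11.9 FPKM in splenic cells and 12.2 in lung cells. Its ratio was 1.03, with an interval of 0.833 to 1.28 from about 165 and 193 reads (154 to 176 and 181 to 206 over the transcript lengths of the gene), so no difference was detectable at this depth.

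These 3 genes lie side by side within 11.1 kb of chromosome 17 (GRCm38, 35194507 to 35205578), with Ltb on the plus strand and Tnf and Lta on the minus strand. Across that distance the level in spleen went from 599.9 FPKM for Ltb to 11.9 for Tnf and 66.8 for Lta. The 150 bases before the start used for each gene, from RefSeq (GRCm38.p6), are shown because these neighbouring genes differ so widely in level. For Tnf and Ltb that start is the outer end of the gene. For Lta it is an inner start, because on the minus strand the gene as placed above begins at 35205578. The Lta stretch shown thus lies within the gene. Capitals mark TATAAA and the NF-kappaB consensus on either strand. AP-1 sites, TGANTCA, were also searched and had no match there.
Tnf, chr17:35202008-35202157, minus strand: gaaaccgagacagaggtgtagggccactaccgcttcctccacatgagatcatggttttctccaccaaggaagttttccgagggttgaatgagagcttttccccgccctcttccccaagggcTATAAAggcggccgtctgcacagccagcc
Lta, chr17:35205352-35205501, minus strand: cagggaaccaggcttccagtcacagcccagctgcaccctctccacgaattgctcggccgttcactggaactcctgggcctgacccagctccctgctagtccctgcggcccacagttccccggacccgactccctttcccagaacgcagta
Ltb, chr17:35194357-35194506, plus strand: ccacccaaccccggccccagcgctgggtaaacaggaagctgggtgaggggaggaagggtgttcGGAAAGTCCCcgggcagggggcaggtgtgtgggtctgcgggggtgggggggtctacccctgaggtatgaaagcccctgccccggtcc

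Tnf carries TATAAA from 29 bases before its start. The whole windows are 300 bases that also take in the first bases after the start used. There Lta has it only at 167 bases before its inner start, outside the stretch shown but still within the gene, and Ltb has none. The position in Lta is therefore not like those in Tnf and Ltb. Ltb has an NF-kappaB consensus, on the minus strand, from 87 bases before its start. The other 7 ligands with a RefSeq promoter have none in this window, and the start used for Tnfsf8, as for Lta, lies inside the gene. The first letters of the Ltb site are also the short NFAT core GGAAA. Of 32851 promoter windows of the same length, 13.6% hold TATAAA, 8.46% the NF-kappaB consensus, 7.81% an AP-1 site and 61.3% GGAAA, on either strand. The core GGAAA was found in all 8 ligand windows, 4 times in Tnfsf14, 3 times each in Tnf and Lta, 2 times in Fasl and once each in Ltb, Tnfsf8, Tnfsf10 and Tnfsf11. Tnfsf11 also holds TATAAA, and Tnfsf14 an AP-1 site. Cd40lg and Cd70 were not among the sequences used. A match describes the letters only, and binding was not measured.

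The ligands of T cell help included Cd40lg and Tnfsf8. As deposited, Cd40lg was slightly higher in lung, a direction that turned with TPM scaling, and Tnfsf8 was lower. Cd40lg, through which T cells activate B cells, dendritic cells and macrophages, came to 51.8 FPKM in splenic and 60.0 in lung Tregs. Its reads came to 559 and 736, and the ratio was 1.16 (1.04 to 1.30). Tnfsf8, the ligand of CD30, had 41.0 FPKM in splenic Tregs and 19.98 in lung Tregs, from about 1531 and 846 reads. The lung value was 2.05-fold lower, with a ratio of 0.487 and a counting interval of 0.447 to 0.530, so that 2-fold itself lies within the interval. Tnfsf8 ranked 2492 among all genes in spleen and 4426 in lung, and was the only ligand more than 2-fold lower in lung. Scaled to the median of the T cell marker genes it was at -0.91 on the log2 scale, under 2-fold.

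The ligands that kill target cells were present at moderate levels in both libraries. Fasl, the inducer of apoptosis through Fas, measured 15.4 FPKM in splenic cells and 15.1 in lung cells, with a ratio of 0.980 (0.833 to 1.16) from about 276 and 308 reads. Tnfsf10, or TRAIL, came to 7.72 FPKM in splenic and 9.96 in lung Tregs, with a ratio of 1.29 (1.13 to 1.47). Fasl was thus not detectably different at this depth, and the interval of Tnfsf10 lay above 1 as deposited, while its direction turned with TPM scaling.

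Tnfsf11 (RANKL), the osteoclast factor that also acts on dendritic cells and the thymic medulla, had 18.9 FPKM in splenic Tregs and 21.4 in lung Tregs. Its ratio of 1.13 had an interval of 0.988 to 1.29, which includes 1. Tnfsf14 and Cd70, which costimulate T cells, were the weakest of the list and had the highest ratios. Tnfsf14 (LIGHT), which binds Tnfrsf14 and Ltbr, measured 3.14 FPKM in splenic cells and 5.01 in lung cells, a ratio of 1.60 (1.14 to 2.30) from about 53.3 and 96.7 reads. Cd70, the ligand of Cd27, came to 0.913 FPKM in splenic and 3.35 in lung Tregs. Its values came to 6 reads in spleen and 25 in lung, and the 3.67-fold higher lung value has a counting interval of 1.47 to 10.9. The size of the Cd70 difference is thus poorly fixed by these reads, and the value with a pseudocount of 1 FPKM was 1.19 on the log2 scale, against 1.88 with the floor. Of the genes of other cells that can make Cd70, 3 of 6 dendritic cell genes were higher in lung and 3 lower, with Clec9a at 0 in lung (sums of 11.9 and 31.1 FPKM). Of the CD8 and NK cell genes 4 of 6 were higher and 2 lower, with Ncr1 at 0 in lung (39.7 and 106 FPKM), and all 6 B cell genes were lower (253 and 132 FPKM). The part of these cells in the Cd70 value was not tested.

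**Figure D2:**
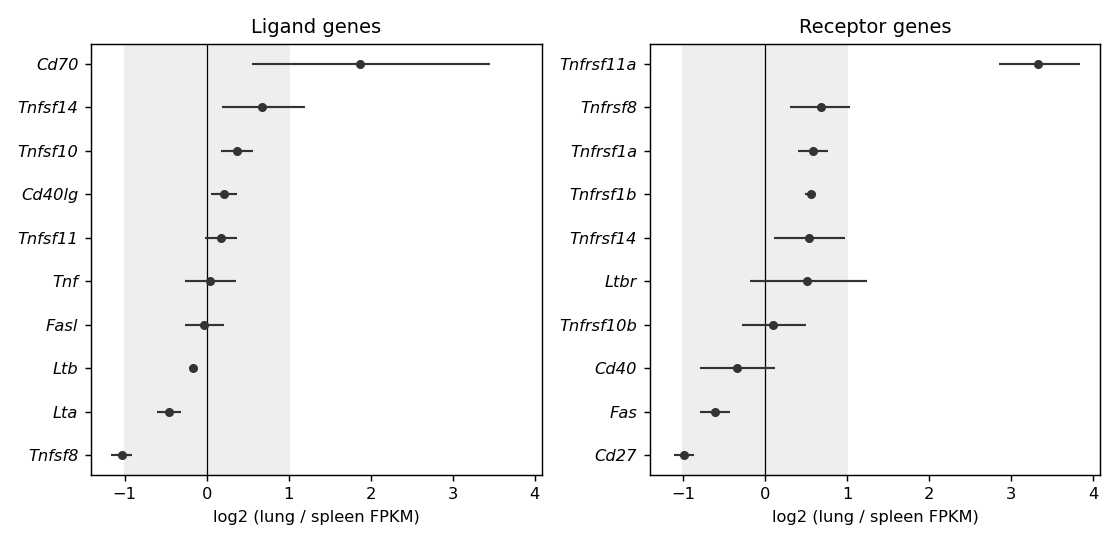
Log2 ratio of lung to splenic FPKM for the 10 ligand genes (left) and 10 receptor genes (right), with the 95% counting interval from estimated reads and a grey band for ratios within 2-fold. Tnfrsf11b, listed at 0 in both libraries, is not drawn. Most genes lie inside the band, with Cd70 (1.88) and Tnfrsf11a (3.33) above it and Tnfsf8 (-1.04) just below it.

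Within each library most neighbours in the order of levels were separated by more than counting error. In spleen the order was Ltb, Lta, Cd40lg, Tnfsf8, Tnfsf11, Fasl, Tnf, Tnfsf10, Tnfsf14 and Cd70, and the interval of the ratio of every neighbouring pair lay above 1. The closest pair there was Tnfsf11 and Fasl, with a ratio of 1.23 (1.05 to 1.44). In lung, Cd40lg passed Lta, with a ratio of 1.23 (1.11 to 1.37), and Tnfsf11 passed Tnfsf8. The levels of Tnfsf11 and Tnfsf8 in lung did not differ beyond counting (ratio 1.07, 0.957 to 1.196), and neither did those of Tnfsf14 and Cd70 (ratio 1.496, 0.959 to 2.43). FPKM are scaled to length, but the intervals cover counting error only and leave out differences in amplification between genes. The order of close pairs is therefore not firmly set. The splenic and lung values of 1 pool each also say nothing of how stable the order is between mice.

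Over 2-fold, 1 of the 10 ligands was higher in lung and 1 was lower, that is 2 in either direction. Of the 12094 genes that reached 1 FPKM in at least 1 library, a level that all 10 ligands reach, 17.8% were over 2-fold higher and 15.5% over 2-fold lower, 33.2% in either direction. Of all symbols listed, including those at 0 in both libraries, 11.0% were higher and 11.7% lower. Among the 5481 genes with a mean of 10 to 100 FPKM, where Tnf, Lta, Fasl, Cd40lg, Tnfsf8 and Tnfsf11 lie, 16.8% differed by over 2-fold, and among the 3742 genes with a mean of 2 to 10 FPKM, where Tnfsf10, Tnfsf14 and Cd70 lie, 40.8% did. Over 1.5-fold, 2 ligands were higher in lung (Cd70 and Tnfsf14) and 1 was lower, beside 27.4% and 25.4% of the 12094 genes. Over 4-fold, 0 ligands lay in either direction, beside 6.02% and 5.39% of all symbols, a base that includes symbols at 0 in both libraries. The share among the 12094 genes was not taken at this fold. Over 20-fold there were 0 ligands, beside 3.27% of the 12094 genes in the higher and 2.35% in the lower direction. The median log2 ratio of the 10 ligands was 0.11, beside 0.031 for the 12094 genes, with 6 ligands above and 4 below 0.

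**Figure D3:**
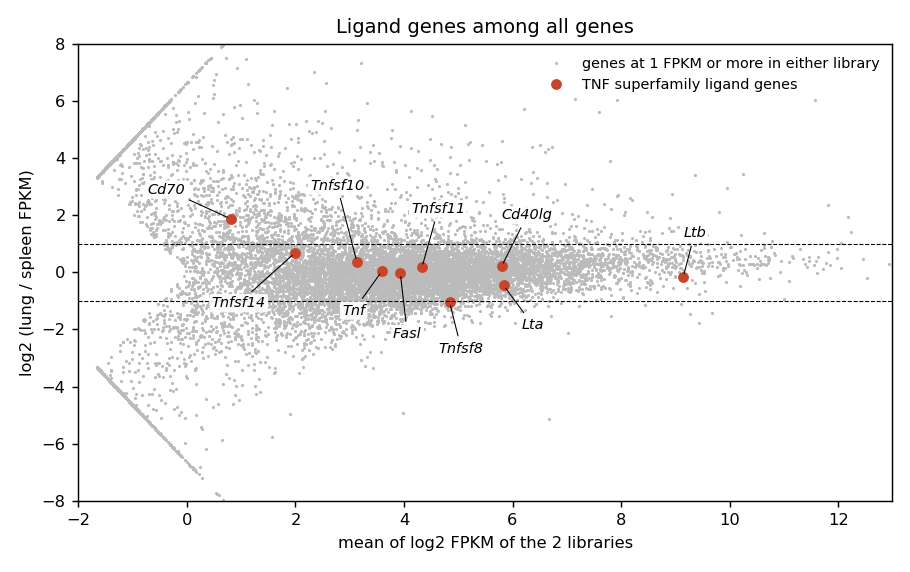
Log2 ratio of lung to splenic FPKM against the mean log2 FPKM for the 12094 genes that reached 1 FPKM in at least 1 library (grey) and the 10 ligand genes (red), with dashed lines at 2-fold. Of the ligands Cd70 lies above and Tnfsf8 just below the dashed lines, and 91 genes fall outside the axes.

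The directions of the smaller ratios depended on how the libraries were scaled. Rescaling both libraries to the same sum (TPM) lowered the ratio of each ligand by 0.43 on the log2 scale, because the lung FPKM sum to 808853 and the splenic FPKM to 599633. Tnf, Cd40lg, Tnfsf10 and Tnfsf11, slightly higher in lung as deposited, were then lower, at -0.39, -0.22, -0.065 and -0.26. Fasl, slightly lower as deposited, was at 0.099 when both libraries were scaled to the median of the T cell marker genes, which added 0.13 to each log2 ratio. Cd70 and Tnfsf14 stayed higher, and Tnfsf8, Lta and Ltb stayed lower, with each floor, pseudocount and scaling tried. Ltb was then only at -0.038 with scaling to T cell genes, and Tnfsf14 at 0.24 with TPM. No counting interval was taken for the rescaled values, so these directions are not shown to exceed counting error.

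**Figure D4:**
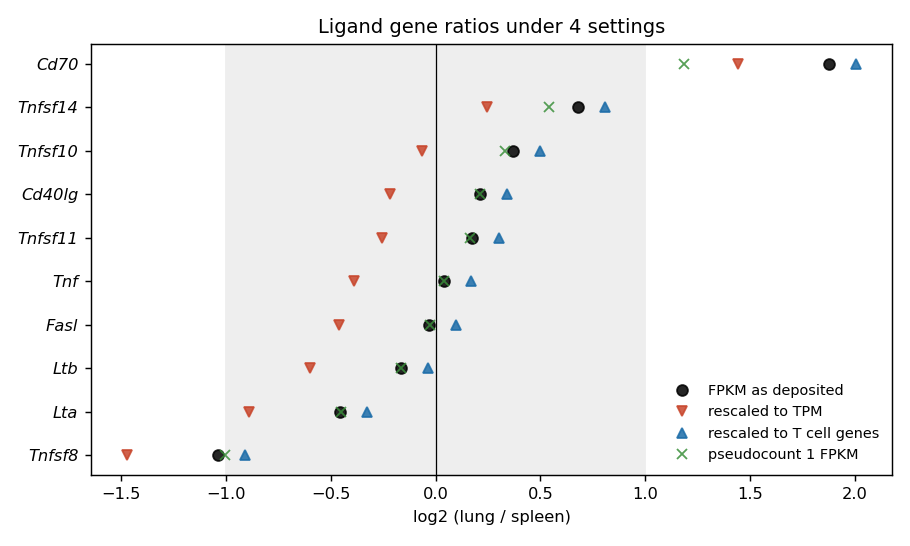
Log2 ratio of lung to spleen for the 10 ligand genes from the deposited FPKM, after rescaling to TPM or to T cell marker genes, and with a pseudocount of 1 FPKM, over a grey band for ratios within 2-fold. Rescaling to TPM moves each ligand to the left by 0.43 and puts Tnf, Cd40lg, Tnfsf10 and Tnfsf11 on the other side of 0.

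Among the other ligands of the superfamily, 4 of 8 genes reached 1 FPKM in either library. Tnfsf9, the 4-1BB ligand that costimulates T cells, had 6.42 FPKM in splenic Tregs and 17.96 in lung Tregs, a 2.80-fold higher value (2.14 to 3.70) from about 72.0 and 229 reads. Tnfsf13 (APRIL), a survival factor of plasma cells, was at 0.759 and 7.56 FPKM, 9.96-fold higher in lung, and Tnfsf12 (TWEAK) was at 0.103 and 1.76 FPKM. Tnfsf12, Tnfsf13 and the joined gene Tnfsfm13 (0.423 and 7.92 FPKM) share exons, so the reads of the 3 cannot be told apart with certainty. Tnfsf13b (BAFF), the B cell survival factor, was at 1.75 FPKM in spleen, about 82.7 reads, and was listed at 0 in lung. Tnfsf4 (0.344 FPKM) and Tnfsf18 (0.156 FPKM), the ligands of OX40 and GITR, were also listed at 0 in lung. Tnfsf15 was at 0.137 and 0.151 FPKM, and Eda was listed at 0 in both. Of these 8 genes 3 were over 2-fold higher and 2 over 2-fold lower by the floored ratio, beside 11.0% and 11.7% of all symbols.

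Tnfsf9, Cd70 and Tnfsf14 lie next to each other on chromosome 17 (57105287 to 57194181, 88.9 kb). All 3 were higher in the lung library, by 2.80-fold, 3.67-fold and 1.60-fold, and the Cd70 value rests on 6 reads in spleen. Of the 12094 genes 27.4% were over 1.5-fold higher in lung. Of the next protein-coding genes, looked up after the values had been seen, C3 (2.07 and 9.63 FPKM) and Trip10 (0.927 and 2.78 FPKM) on 1 side were higher in lung too. On the other side Tubb4a was at 0.812 and 0.589 FPKM, and Dennd1c was at 81.1 and 81.4 FPKM.

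The receptors of the 10 ligands were measured in the same libraries. Of 11 receptor genes 1 was over 2-fold higher in lung and 0 over 2-fold lower, beside 17.8% and 15.5% of the 12094 genes. At any size 7 were higher and 3 lower, beside 6226 higher and 5868 lower of the 12094 genes. The median log2 ratio was 0.51, beside 0.031 for the 12094 genes. Rescaling to TPM, which lowers every ratio, put the receptor median at 0.082. Tnfrsf11a (RANK), the receptor of Tnfsf11, measured 0.781 FPKM in splenic cells and 7.84 in lung cells, 10.03-fold higher (7.22 to 14.3) from about 39.0 and 444 reads. RANK is known from myeloid cells and osteoclast precursors. All 8 macrophage genes were higher in the same library, with sums of 489 and 25444 FPKM that were mostly Lyz2. Their ratios ran from 1.14 (Csf1r, 43.8 and 50.1 FPKM) to 80.6 with the floor (Siglecf). The part of macrophages in the Tnfrsf11a value was not tested. Tnfrsf11b, the decoy receptor of Tnfsf11, was listed at 0 in both libraries.

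Both TNF receptors were higher in lung, Tnfrsf1a at 19.6 and 29.3 FPKM, a ratio of 1.496 (1.32 to 1.70), and Tnfrsf1b at 81.1 and 118.8 FPKM, a ratio of 1.47 (1.40 to 1.53). Their ligands Tnf and Lta had ratios of 1.03 and 0.728. With TPM scaling the log2 ratios were only 0.15 for Tnfrsf1a and 0.12 for Tnfrsf1b, and -0.39 and -0.89 for Tnf and Lta. Ltbr, the receptor of Ltb, is not known as a T cell gene and was at 1.48 and 2.12 FPKM. Cd27, which binds Cd70, came to 223 FPKM in splenic and 112 in lung Tregs, a 1.99-fold lower value (ratio 0.503, 0.461 to 0.548). At those levels Cd27 exceeded Cd70 by far in both libraries. Over its transcript lengths the reads of Cd27 run from 880 to 3129 in spleen and 502 to 1787 in lung, so its interval depends on the length taken.

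Fas had 71.9 FPKM in splenic Tregs and 46.9 in lung Tregs, a ratio of 0.653 (0.575 to 0.739), while Fasl had the ratio 0.980. The reads of Fas run from 241 to 948 in spleen and 179 to 703 in lung over its transcript lengths. Its interval, taken at the median length, depends on that choice. Tnfrsf8 (CD30) was at 2.96 and 4.72 FPKM, a ratio of 1.59 (1.23 to 2.05), opposite to its ligand Tnfsf8. Tnfrsf14, which binds Tnfsf14 and Lta, was at 8.87 and 12.8 FPKM, and Tnfrsf10b, which binds Tnfsf10, was at 3.31 and 3.55 FPKM. Cd40, a gene of B cells and myeloid cells, was at 6.04 and 4.76 FPKM. With TPM scaling Fas (-1.05) and Cd27 (-1.42) were over 2-fold lower in lung, and Tnfrsf10b was lower in place of higher (-0.33).

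Downstream of the receptors, 0 of 14 genes of adaptors and signal proteins were over 2-fold higher and 3 were over 2-fold lower in lung, beside 17.8% and 15.5% of the 12094 genes, so that these counts are no result about the list. The lower genes were Traf5 (41.1 FPKM in spleen and 10.4 in lung), Map3k14, the kinase NIK of the alternative NF-kappaB pathway (9.29 and 2.79 FPKM), and Traf6 (17.05 and 5.76 FPKM). The highest ratios of that list were those of Fadd (4.89 and 6.67 FPKM), Traf1 (96.2 and 115 FPKM) and Traf4 (12.6 and 15.0 FPKM). Of 10 NF-kappaB subunit and feedback genes 0 differed by over 2-fold, beside 33.2% of the 12094 genes and 16.8% of those with a mean of 10 to 100 FPKM. Nfkbia, the inhibitor that NF-kappaB induces, had the highest ratio (580.7 and 871 FPKM), followed by Rel (15.5 and 20.6 FPKM) and Nfkbib (42.7 and 55.7 FPKM), and the lowest ratios were those of Bcl3 (63.4 and 44.2 FPKM), Relb (53.4 and 41.2 FPKM) and Rela (86.2 and 71.6 FPKM).

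Of 4 genes of ligand shedding, Adam17, the protease that releases TNF, was at 25.2 and 32.8 FPKM, and Adam10, which cuts FasL, was at 35.0 and 18.9 FPKM. Their inhibitor Timp3, a gene of fibroblasts and other stromal cells, was at 0.194 and 1.46 FPKM. Of 8 regulators of short-lived mRNA, Zfp36, which binds the Tnf element shown above, measured 291 FPKM in splenic cells and 426 in lung cells. Zfp36l2 (171 and 81.4 FPKM) and Khsrp (7.40 and 3.27 FPKM) were over 2-fold lower in lung and 0 over 2-fold higher, beside 15.5% and 17.8% of the 12094 genes. Rc3h2, which encodes Roquin-2, was at 4.69 and 2.88 FPKM, Zc3h12a, the RNase Regnase-1, at 5.91 and 7.26 FPKM, and Elavl1, the stabilising protein HuR, at 28.4 and 31.8 FPKM.

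Among 10 factors of activated T cells that act on ligand genes, Irf4 (6.57 and 16.2 FPKM) and Batf (117 and 244 FPKM) were over 2-fold higher in lung, and Junb was at 671 and 959 FPKM. Nfatc3 (45.3 and 12.3 FPKM) and Egr3 (3.01 and 0.852 FPKM) were over 2-fold lower, and Nfatc1 was at 93.5 and 53.0 FPKM. These 2 higher and 2 lower of 10 genes stand beside 17.8% and 15.5% of the 12094 genes, shares close to those of the list.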

How the data were processed

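The authors sorted GFP+CD4+ cells on day 15 after bleomycin, pooled the cells of 3 mice per tissue, made cDNA with a SMART-Seq HT kit, sequenced 75-base single-end reads, mapped them to mm10 and deposited FPKM. The submitters' processing notes name TopHat2 2.1.1, SAMtools 0.1.18, Bowtie2 2.2.8 and Cuffdiff 2.2.1. The annotation, the options and any scaling between libraries are not given in the sources used here. Because FPKM keep a library's composition, abundant RNA of other cells changes each gene's share.

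The FPKM ratio of lung to spleen used a floor of 0.1 FPKM. Reads were estimated from lengths of GENCODE M21 transcripts tied to RefSeq (23677 of 24346 symbols), a fragment length of mean 200 and SD 80 with a shortest fragment of 73, and the most frequent low value taken as 1 read. Genes with several lengths were given their median. Among genes with 1 length and up to about 10 reads, 72.8% in spleen and 75.0% in lung came within 0.1 of a whole number. The total of mapped reads is unknown. The steps were tested on simulated data.

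The members and lists were chosen with earlier results of these data known. All ligands and receptors are named, and of the other lists up to 3 genes with the highest and 3 with the lowest ratios at 1 FPKM or more. Trac and Ly6g were not found under these symbols. The alternatives were other floors, pseudocounts, scalings, read minimums and folds. Scaling to T cell genes was added after seeing the data. Calculations ran in Python 3.11.15 (scipy 1.17.1, pandas 2.3.3, numpy 2.4.6), plots in matplotlib 3.10.9.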

Additional observations from a re-analysis of the deposited data

How the results depend on the processing

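The count of ligands over 2-fold higher in lung (1) changed only with the fold itself, to 2 above 1.5-fold (Cd70 and Tnfsf14) and 0 above 4-fold. The count lower in lung (1, Tnfsf8) was 0 above 4-fold and 0 after scaling to T cell genes, an alternative chosen after seeing the data. The median log2 ratio of the ligands, 0.11, was -0.32 after rescaling to TPM and between 0.092 and 0.24 otherwise. Of the receptors, 2 were over 1.5-fold higher and 2 over 1.5-fold lower, against 1 and 0 at 2-fold. The count lower at 2-fold was 2 with TPM scaling, 1 with a median ratio of 1 and 1 with equal upper quartiles, where Cd27 passes 2-fold. The receptors' median stayed above 0, from 0.082 to 0.64. Leaving out a library was not possible with 1 per tissue. No paired analysis was possible because each group has 1 library. Depth limits Cd70 in spleen (6 estimated reads) most.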
